A study of Mus musculus with 6 samples.

Results

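The RNA of 10 genes that encode transcription regulators of late meiosis and spermiogenesis was compared between WT and Trf2-/- mouse testis. The genes were chosen by name, with earlier results of these data known, from the 26743 genes in the count table. They are Crem and its coactivator Fhl5, the RFX genes Rfx1, Rfx2, Rfx3 and Rfx4, the SOX genes Sox5 and Sox30, the MYB gene Mybl1, which encodes A-MYB, and the basic helix-loop-helix gene Tcfl5. Total RNA depleted of ribosomal RNA was sequenced from whole testis of 3 WT and 3 Trf2-/- males at post natal day 21. Trf2, listed in the table as Tbpl1, encodes a relative of the TATA-box binding protein. Trf2-/- males carry the inactivation in every cell and their germ cells stop at the spermatid stage. Which exons the inactivation removes is not given in the sources used here. The methods name a 129/SvPas background in the section on the tagged Trf2 mice of the study and give none separately for Trf2-/- mice.

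Sperm develop from spermatogonia through meiotic spermatocytes to haploid round spermatids, which then elongate and pack their chromatin with protamines. A small set of DNA-binding proteins starts this program. A-MYB acts at the pachytene stage of meiosis, where it drives meiotic genes and the precursors of pachytene piRNAs. TCFL5 is made in pachytene spermatocytes, and it shares many targets with A-MYB. RFX proteins bind X-box elements of genes for cilia and the sperm flagellum, and RFX2 is needed by round spermatids. SOX30 switches on post-meiotic genes. CREM binds cyclic AMP response elements (CRE) in spermatid genes, and FHL5, also called ACT, is its testis coactivator. In whole testis, fewer cells of a type and less RNA per cell cannot be told apart.

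The 6 libraries held 15187062 to 29859347 counts on genes, and the library of Trf2-/- mouse 3 was the smallest. Tbpl1 gave counts of 8840, 7391 and 6119 in WT against 1586, 1500 and 882 in Trf2-/- mice, which is 20.7% of the WT level in CPM, which are counts scaled to a common library size. Germ cell markers moved with genotype. In the counts of markers that follow, lower and higher mean an adjusted p under 0.05 by edgeR's quasi-likelihood test. By this test 20.2% of all 16924 tested genes were lower and 11.2% were higher. Summed over 11 pachytene spermatocyte markers, the level was 7579 to 8096 CPM in WT and 5323 to 6265 in Trf2-/- mice, with 8 of 11 lower and 2 higher. The 2 higher genes, Sycp1 (log2 fold change 0.29, adjusted p 0.00602) and Sycp3 (0.24, adjusted p 0.00426), encode proteins of the synaptonemal complex. Summed round spermatid markers were at 34.6 to 38.7 CPM in WT and 11.1 to 16.7 in Trf2-/- mice, and those of elongating spermatids at 8.49 to 10.3 and 1.33 to 2.40 CPM, with Prm2 and Prm3 at 3 counts or fewer in every mouse. Sertoli cell markers summed to 1756 to 1901 CPM in WT and 2060 to 2255 in Trf2-/- mice, and 5 of 11 were higher. Ldhc led the pachytene spermatocyte sum, at a mean of 2279 CPM in WT and 1407 in Trf2-/- mice. Clu led the Sertoli cell sum, at a mean of 1094 CPM in WT and 1275 in Trf2-/- mice. Macrophage markers summed to 206 to 235 and 231 to 456 CPM, with 5 of 10 higher and the highest sum in Trf2-/- mouse 1. Of spermatogonial, Leydig and peritubular markers, 1 of 10, 1 of 7 and 1 of 5 were higher and none was lower by the same test. With 11.2% of all tested genes higher, nothing is read from these small counts. Of 6 T cell genes, Cd3e, Cd3g and Cd8a had at most 3 counts in every mouse. Trf2-/- mouse 3 had the lowest spermatocyte and spermatid sums. The part of these marker shifts in the results that follow was not tested.

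Of the 10 regulators, 6 were lower in Trf2-/- testis, namely Rfx2, Tcfl5, Rfx4, Crem, Sox30 and Mybl1. None was higher by edgeR's quasi-likelihood test at an adjusted p under 0.05, against 1 at an unadjusted p under 0.05 (Rfx3) and 0 by DESeq2. Over all 16924 genes tested, 20.2% were lower and 11.2% were higher by this rule. Every change was small. None of the 10 was at least 2-fold lower, with or without adjustment or by DESeq2, where 4.30% of all tested genes were. The median log2 fold change of the 10 was -0.26, beside 0.04 over all tested genes, and 8 of the 10 were negative, beside 45.1% of all. The Trf2-/- mice lay below all WT mice for 7 regulators and above them for 1, where 26.8% of all tested genes lay below and 22.3% above. Scaling moved this balance. Of all genes that passed the test, here termed called, 64.4% were lower with TMM factors, which scale libraries by the bulk of their genes, and 38.7% with library size alone. With library size alone 5 of the 10 regulators were lower and Rfx3 was higher.

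**Figure D1:**
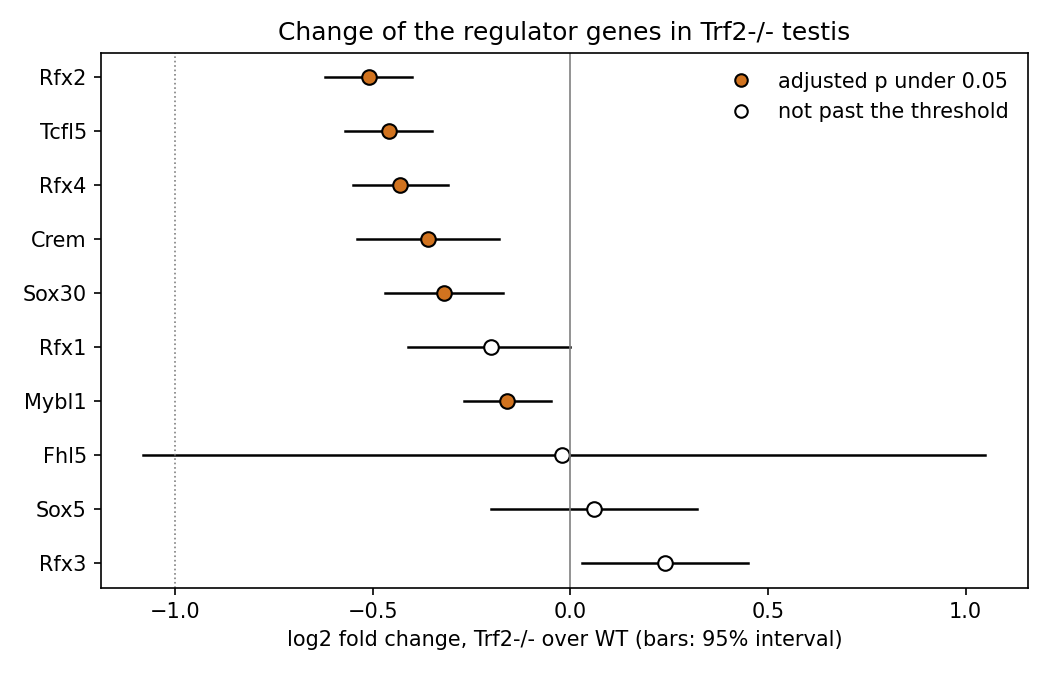
Log2 fold change of each regulator gene, Trf2-/- over WT, on the horizontal axis, with bars for the 95% interval of edgeR's fit to 3 mice per genotype and a dotted line at a 2-fold decrease. The 6 filled points lie between -0.51 and -0.16, and the Fhl5 interval runs from -1.08 to 1.05.

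Crem encodes both activator and repressor forms of a CRE-binding factor. The gene lies at 18:3266046-3337746 on the minus strand of NCBIM37, where the annotation gives 41 transcripts, and the gene count sums them, so the forms cannot be told apart. Gm6225 on the opposite strand shares 103 exon bases with it and had 2 to 7 counts per mouse. Crem stood at 119, 118 and 121 CPM in WT mice 1 to 3, against 95.2, 103 and 81.1 CPM in Trf2-/- mice 1 to 3. The WT mice were within a narrow band and every Trf2-/- mouse lay under it, with mouse 3 the lowest. The mean fell from 120 ± 1.46 to 93.0 ± 11.0 CPM (SD, n = 3 each), a log2 fold change of -0.36 with an SE of 0.08 and an adjusted p of 0.00837. Without Trf2-/- mouse 3 the log2 fold change was -0.27.

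The profile of Crem over the 6 mice was compared with that of every tested gene by the root mean square difference of log2 CPM centred on each gene's mean. The closest were Agbl5 at 0.017, Gtf2e2 at 0.020 and Nicn1 at 0.023, where the median gene was at 0.286. Agbl5 encodes an enzyme that removes glutamates from tubulin, Gtf2e2 a subunit of the general factor TFIIE, and Nicn1 a subunit of a tubulin polyglutamylase complex. Agbl5 stood at 403, 391 and 412 CPM in WT and at 326, 343 and 271 in Trf2-/- mice. These 3 genes share with Crem the low value in Trf2-/- mouse 3. Among the regulators, Rfx4 at 0.096 and Tcfl5 at 0.105 were nearest to Crem, and Rfx3 at 0.341 and Fhl5 at 0.514 were farthest. With 6 mice in 2 groups, such distances mostly describe the genotype difference and the position of that 1 mouse.

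Fhl5, at 4:25127055-25170023 on the minus strand, was hardly detected. It gave counts of 18, 8 and 16 in WT against 22, 8 and 6 in Trf2-/- mice, and the groups overlapped. The levels were 0.567 ± 0.236 and 0.532 ± 0.296 CPM (SD, n = 3 each), with a log2 fold change of -0.02 and an adjusted p of 0.981. A 2-fold change in either direction lies inside the 95% interval of -1.08 to 1.05, so no difference was detectable at this depth.

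The RFX family gave both directions. Rfx2 and Rfx4 were lower in Trf2-/- testis, Rfx1 lay lower without passing the test, and Rfx3 lay higher without passing it. The 4 genes share a winged-helix DNA-binding domain that recognises the X-box, an element of inverted repeats whose arm reads GTTGCC. RefSeq promoter windows of GRCm38.p6, running from 250 bases before to 50 after a start site, were in the table used for 8 of the 10 regulators and not for Crem and Mybl1. The arm was searched on both strands and was found for 3 of the 4 RFX genes and for Sox5, where 12.5% of all 32851 windows of this length hold it. The stretches around these matches are shown because the element is the one that the RFX proteins themselves bind, 5′ to 3′ on the gene's strand, with the arm in capitals.
Rfx1, chr8:84066813-84066866, plus strand: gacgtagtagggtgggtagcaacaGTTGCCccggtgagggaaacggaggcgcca
Rfx2, chr17:56831095-56831148, minus strand: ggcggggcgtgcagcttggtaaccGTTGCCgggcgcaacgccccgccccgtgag
Rfx3, chr19:28011117-28011159, minus strand: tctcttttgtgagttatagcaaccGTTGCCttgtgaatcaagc
Sox5, chr6:143947093-143947146, minus strand: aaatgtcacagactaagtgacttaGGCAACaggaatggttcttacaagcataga
The match begins at position 2 from the start site in Rfx1, at -116 in Rfx2, at 32 in Rfx3 and at -16 in Sox5, where it reads on the opposite strand. The stretch of Rfx3 is shorter because the window ends there. Rfx4 has no match in its windows. Each of the 4 matches overlaps a match to the MYB core AACNG in its own window. A match of 6 letters is a description of the window and was not tested for binding, and the matched genes include both called and uncalled ones.

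Rfx2, the RFX gene that round spermatids depend on, lies at 17:56915320-56970431 on the minus strand of NCBIM37. It stood at 151, 139 and 143 CPM in WT mice 1 to 3, against 102, 102 and 99.8 CPM in Trf2-/- mice 1 to 3. The groups were far apart and the Trf2-/- mice were nearly equal. The mean fell from 144 ± 5.85 to 101 ± 1.31 CPM (SD, n = 3 each), a level 29.8% lower, with a log2 fold change of -0.51, an SE of 0.05 and an adjusted p of 0.000329. This was the greatest decrease among the 10 regulators. Over all 13 alternative settings the log2 fold change stayed between -0.54 and -0.42.

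Rfx4, at 10:84218807-84369283 on the plus strand, encodes an RFX protein with forms in brain and in testis. Its level was 78.6, 74.8 and 72.6 CPM in WT mice 1 to 3, against 55.0, 58.0 and 54.9 CPM in Trf2-/- mice 1 to 3, with no overlap. The mean fell from 75.4 ± 3.03 to 55.9 ± 1.79 CPM (SD, n = 3 each), a log2 fold change of -0.43 with an SE of 0.05 and an adjusted p of 0.000816.

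Rfx1 encodes a broadly expressed founding member of the family and lies at 8:86590735-86620891 on the plus strand. It stood at 11.9, 13.0 and 12.8 CPM in WT mice 1 to 3, against 10.5, 10.8 and 11.4 CPM in Trf2-/- mice 1 to 3. The groups did not overlap, but the gap was small beside the spread, and the log2 fold change of -0.20 (SE 0.09) had an adjusted p of 0.123. Its 95% interval ran from -0.41 to 0.00. An opposite-strand gene, C330011M18Rik, shares 42 exon bases with Rfx1 and had 83 to 144 counts per mouse, where Rfx1 had 181 to 341, and the strand setting of the counting is not given in the sources used here.

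Rfx3, a regulator of motile cilia in many tissues, lies at 19:27836211-28085656 on the minus strand. It was at 19.1, 16.3 and 20.4 CPM in WT mice 1 to 3, against 21.3, 21.7 and 22.8 CPM in Trf2-/- mice 1 to 3. All Trf2-/- mice were above all WT mice, and WT mouse 2 was the lowest. The log2 fold change of 0.24 (SE 0.09) had an unadjusted p of 0.0303 and an adjusted p of 0.0802 by edgeR. Scaled by library size alone it was 0.33 with an adjusted p of 0.02, and without WT mouse 2 it was 0.15. Of the Sertoli cell markers, 5 of 11 were higher in the same mice, beside 11.2% of all tested genes. A link to Rfx3 was not tested.

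The make-up of the summed level per kb of Rfx1, Rfx2, Rfx3 and Rfx4 shifted a little. Rfx2 gave 67.3% ± 0.458 of this sum in WT and 64.3% ± 0.659 in Trf2-/- mice (SD, n = 3 each). Rfx4 gave 24.9% ± 0.566 and 25.2% ± 0.566, and Rfx1 4.72% ± 0.381 and 5.58% ± 0.285. The share of Rfx3 was 3.04% ± 0.321 in WT and 4.88% ± 0.198 in Trf2-/- mice. Rfx2 and Rfx4 supplied most of this sum in each of the 6 mice. Rfx5, Rfx7 and Rfx8 are not part of it, and their mean levels in WT were 54.4, 55.0 and 73.9 CPM.

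Within a mouse, the ratio of 2 genes does not depend on the scaling of libraries. The 8 ratios examined were chosen after the levels had been seen and are given as a description. Rfx2 stood at 22.6, 24.4 and 20.0 times the level of Rfx3 per kb in the WT mice and at 13.7, 13.4 and 12.5 times in the Trf2-/- mice. The ratio of Rfx2 to Rfx4 was 2.70 ± 0.0738 in WT and 2.55 ± 0.0773 in Trf2-/- mice (SD, n = 3 each), and the lowest WT mouse and the highest Trf2-/- mouse met at 2.62. The ratio of Rfx2 to Mybl1 was 0.819 ± 0.00976 in WT and 0.643 ± 0.0109 in Trf2-/- mice (SD, n = 3 each). The ratio of Crem to Mybl1 overlapped between genotypes, at 0.379, 0.412 and 0.415 in WT and 0.351, 0.392 and 0.306 in Trf2-/- mice.

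**Figure D2:**
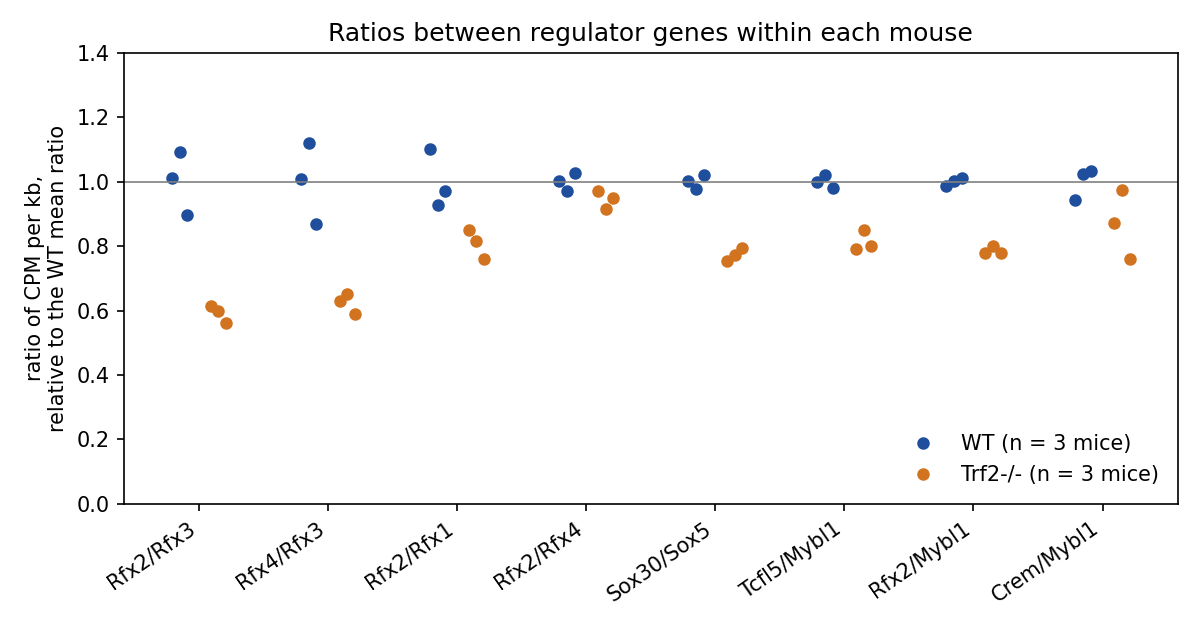
Ratio of CPM per kb between regulator genes in each mouse, divided by the WT mean of that ratio, with 1 point per mouse (3 WT, 3 Trf2-/-). The Trf2-/- points of Rfx2 to Rfx3 and of Rfx4 to Rfx3 lie farthest below the WT points, those of Rfx2 to Rfx4 meet them, and those of Crem to Mybl1 overlap them.

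Sox30, a germ cell SOX gene required after meiosis, lies at 11:45793812-45831496 on the plus strand. It was at 32.3, 32.8 and 35.4 CPM in WT mice 1 to 3, against 28.1, 25.6 and 26.9 CPM in Trf2-/- mice 1 to 3, with no overlap. The mean fell from 33.5 ± 1.62 to 26.9 ± 1.27 CPM (SD, n = 3 each), a log2 fold change of -0.32 with an SE of 0.07 and an adjusted p of 0.00697.

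Sox5, whose short form is made in spermatids and whose long form is made in cartilage and brain, spans 6:143776945-144730497 on the minus strand with 14 transcripts summed in 1 count. It was at 6.17, 6.40 and 6.62 CPM in WT mice 1 to 3, against 7.14, 6.30 and 6.45 CPM in Trf2-/- mice 1 to 3. The groups overlapped, and the log2 fold change was 0.06 (SE 0.11, adjusted p 0.736) with a 95% interval of -0.20 to 0.32. The ratio of Sox30 to Sox5 per kb was 17.0 ± 0.339 in WT and 13.1 ± 0.394 in Trf2-/- mice. A transcript on the opposite strand, 4933415D12Rik, shares 1330 exon bases with Sox5 and had 1 count in WT mouse 3 and 0 in the other mice.

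Mybl1, at 1:9657496-9690290 on the minus strand, was among the most abundant of the 10. It was at 277, 253 and 257 CPM in WT mice 1 to 3, against 239, 231 and 233 CPM in Trf2-/- mice 1 to 3. The groups did not overlap, and the distance between them was small. The mean fell from 262 ± 13.3 to 234 ± 4.25 CPM (SD, n = 3 each), a level 10.7% lower, with a log2 fold change of -0.16, an SE of 0.05 and an adjusted p of 0.0336. This call was fragile. It was lost when any of 5 of the 6 mice was left out (all but Trf2-/- mouse 3), with log2 fold changes of -0.19 to -0.12, and it was lost with library size alone, at -0.07 and an adjusted p of 0.27.

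Tcfl5 lies at 2:180356661-180377413 on the minus strand of NCBIM37 and had the highest level of the 10. It was at 395, 368 and 359 CPM in WT mice 1 to 3, against 270, 279 and 267 CPM in Trf2-/- mice 1 to 3, so the groups were far apart. The mean fell from 374 ± 19.0 to 272 ± 6.19 CPM (SD, n = 3 each), a level 27.2% lower, with a log2 fold change of -0.46, an SE of 0.05 and an adjusted p of 0.000505. Col9a3, on the opposite strand, shares 234 exon bases with Tcfl5 and had 85 to 143 counts per mouse, where Tcfl5 had 4223 to 11342. The ratio of Tcfl5 to Mybl1 was 3.19 ± 0.0652 in WT and 2.60 ± 0.0927 in Trf2-/- mice.

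The promoter window of Tcfl5 is shown because it holds 6 matches to the MYB core AACNG, searched on both strands, and A-MYB is the other pachytene regulator of the 10. In capitals are the matches, in the RefSeq window of GRCm38.p6 read 5′ to 3′ on the gene's strand.
Tcfl5, chr2:180642642-180642941, minus strand: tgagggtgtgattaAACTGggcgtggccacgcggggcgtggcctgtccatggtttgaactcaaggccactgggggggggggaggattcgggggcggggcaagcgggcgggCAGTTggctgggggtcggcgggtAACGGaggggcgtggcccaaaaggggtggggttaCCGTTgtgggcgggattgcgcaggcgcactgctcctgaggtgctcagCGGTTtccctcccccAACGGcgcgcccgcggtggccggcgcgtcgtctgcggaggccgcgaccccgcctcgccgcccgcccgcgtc
The core is short and common. At least 1 match is in 80.3% of all windows and in those of all 8 regulators that have a window. Windows with 6 or more are 1.55% of all. That cutoff was taken from Tcfl5, whose count is the highest among the regulator windows, so the share is a description. Binding of A-MYB was not tested. The CRE core TGACG, part of the full CRE and searched like it on both strands, was in the windows of 3 regulators, Rfx1, Rfx2 and Rfx4 (20.8% of all windows hold it), the full CRE TGACGTCA in 0 (1.79% of all windows), and the SOX core ACAAT in 4 (31.0%).

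Per kb of deposited gene length, the 10 regulators kept the same order in both genotypes. In WT the mean levels were 168 CPM per kb for Tcfl5, 52.6 for Mybl1, 43.0 for Rfx2, 21.1 for Crem, 16.0 for Rfx4, 11.2 for Sox30, 3.01 for Rfx1, 1.94 for Rfx3, 0.658 for Sox5 and 0.484 for Fhl5. In Trf2-/- mice they were 122, 47.0, 30.2, 16.4, 11.8, 8.96, 2.62, 2.29, 0.682 and 0.454 in that order. Only Sox5 and Fhl5 overlapped as neighbours in WT, at 0.635 to 0.681 and 0.262 to 0.656 CPM per kb. The deposited length is shorter than the merged exons of all annotated transcripts for Crem, Rfx3, Sox5, Mybl1 and Tcfl5. For Sox5 it is 9719 bases against 14376. The order of Sox5 and Fhl5, and whether it is the same in both genotypes, depends on which length is used. Genes whose testis form is shorter than the length used are set too low on this scale. The 6 regulators that fell are the 6 of highest level per kb, and the 4 that did not pass the test are the 4 of lowest level. Precision differs with level, and the SE of the log2 fold change runs from 0.05 for the 4 genes Rfx2, Rfx4, Mybl1 and Tcfl5 to 0.47 for Fhl5.

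**Figure D3:**
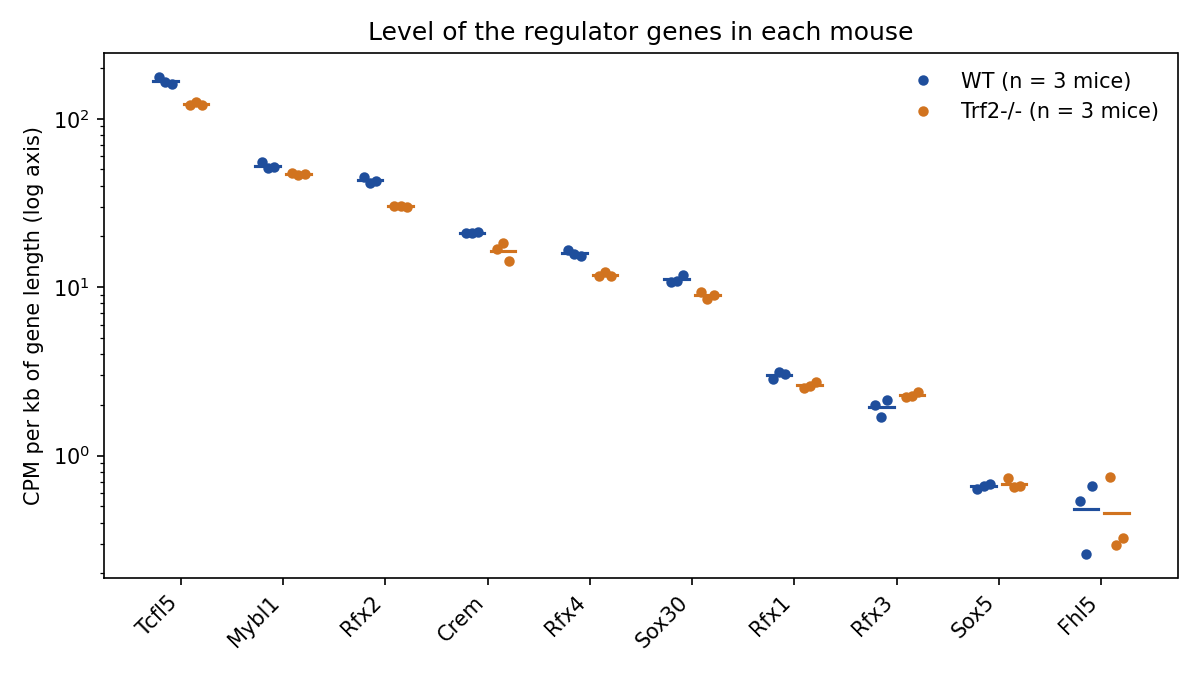
Level of each regulator gene in CPM per kb of gene length on a log axis, with 1 point per mouse and a bar at the mean of 3 WT and 3 Trf2-/- mice. Genes are ordered by the WT mean, from Tcfl5 at 168 to Fhl5 at 0.484, and the 2 sets of points overlap for Sox5 and Fhl5 alone.

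Of 13 partners and kinases of CREM, 4 were lower and 3 higher, with a median log2 fold change of 0.09, beside 20.2% lower and 11.2% higher over all tested genes. Fhl4, a testis relative of Fhl5, gave counts of 33920, 29860 and 24916 in WT against 14294, 14219 and 5951 in Trf2-/- mice, and fell from 1174 ± 26.8 to 518 ± 124 CPM (SD, n = 3 each; log2 fold change -1.18, adjusted p 0.000808). Kif17, the kinesin that moves ACT out of the spermatid nucleus, fell by 0.66 on the log2 scale (adjusted p 0.0226), and Creb3l4, a membrane-bound relative of CREB, by 0.48 (adjusted p 0.0320). Fhl3, another LIM-only relative, rose by 0.42 (adjusted p 0.0403). The last 3 calls were each lost without any 1 of the WT mice and without 2 of the Trf2-/- mice (mice 1 and 2 for Kif17 and Fhl3, mice 1 and 3 for Creb3l4), with values of -0.83 to -0.53 for Kif17, -0.68 to -0.38 for Creb3l4 and 0.37 to 0.47 for Fhl3. Creb3l4 was also not called with library size alone, nor Fhl3 by DESeq2. Creb1, the somatic relative of Crem, had a log2 fold change of 0.00.

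Spermatid genes known to need CREM or to carry a CRE gave mixed values. Of 12 listed, 10 were in the table and 7 were tested, of which 4 were lower and 1 higher. Odf1, Akap4 and Gapdhs, 3 of the 4 lower genes, passed the filter on low counts through the WT mice and so had to differ, and nothing is read from this count. Pgk2, the phosphoglycerate kinase of meiotic and post-meiotic germ cells, gave counts of 2854, 2416 and 2353 in WT against 1192, 1191 and 285 in Trf2-/- mice (log2 fold change -1.37, adjusted p 0.00763). Odf1, an outer dense fibre protein, had 67, 62 and 50 counts against 9, 11 and 3. Akap4, the main fibrous sheath protein, had 64, 66 and 33 against 6, 7 and 0, and Gapdhs, the sperm glycolytic enzyme, 24, 38 and 19 against 1, 2 and 1. The fold size of these genes rests on very few counts. Ace, whose testis form has a CRE-like element and which somatic cells also make, rose by 0.28 (adjusted p 0.0370). Cyct, testis cytochrome c, was at -0.06 (adjusted p 0.499), and Camk4, a kinase upstream of CREM, was at 0.39 (adjusted p 0.180). Odf1, Akap4 and Gapdhs are also markers of elongating spermatids in the list above.

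Among 5 tested RFX relatives, 2 were lower and 1 higher, beside the same 20.2% and 11.2% over all genes. Rfx8 gave counts of 2157, 1845 and 1580 in WT against 959, 831 and 414 in Trf2-/- mice, a fall from 73.9 ± 2.80 to 33.3 ± 6.28 CPM (SD, n = 3 each; log2 fold change -1.14, adjusted p 0.000441), more than 2-fold. Rfxank, a subunit of the RFX complex at MHC class II genes, fell by 0.33 (adjusted p 0.0406). This call was lost with library size alone, with a replicate block, or without any mouse but Trf2-/- mouse 2 (-0.41 to -0.26). Rfx5, the DNA-binding partner of Rfxank, rose by 0.28 (adjusted p 0.00508). Of 22 genes listed as cilium genes of the class known for X-boxes, 11 were lower and none higher at an adjusted p under 0.05 by edgeR. Their median was -0.22, beside 20.2% lower, 11.2% higher and a median of 0.04 over all tested genes. The 22 include the histone gene Hist1h1t, which is not a cilium gene and was not called, at -0.09. Spag6, of the axonemal central pair, fell by 0.78 (adjusted p 0.00217). Foxj1, the master regulator of motile cilia, fell by 0.68 (adjusted p 0.0198), a call lost without WT mouse 2, WT mouse 3 or Trf2-/- mouse 1, where leaving out 1 mouse gave -0.91 to -0.58. Ift140 and Bbs1, of ciliary transport, each fell by 0.59.

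The 11 tested genes listed as SOX and MYB relatives had log2 fold changes of -0.21 to 0.40. Of these, 1 was lower and 1 higher, where 20.2% and 11.2% of all genes were. They were Sox6 at -0.15 (adjusted p 0.0362) and Sox8, a Sertoli cell gene, at 0.21 (adjusted p 0.0462), and both calls were lost by DESeq2. Leaving out 1 mouse gave -0.19 to -0.13 for Sox6, called only without Trf2-/- mouse 2, and 0.16 to 0.24 for Sox8, called only without Trf2-/- mouse 1, and Sox6 was not called with library size alone. The value of 0.40 belongs to Sox13 (adjusted p 0.0674) and that of -0.21 to Lin37 (adjusted p 0.154). Lin9, Lin37, Lin52 and Lin54 are counted among the 11 but are not themselves SOX or MYB genes. Of 15 piRNA pathway genes of the class known for A-MYB binding, 7 were lower and none higher by edgeR, with a median of -0.12, beside 20.2% lower and 11.2% higher over all. Tdrd6, a tudor protein of the chromatoid body, gave counts of 32241, 27311 and 21976 in WT against 11640, 12483 and 5857 in Trf2-/- mice, a fall from 1075 ± 42.5 to 456 ± 82.7 CPM (SD, n = 3 each; log2 fold change -1.24, adjusted p 0.000329). Pld6, which shapes piRNA ends on mitochondria, fell by 0.39, Mael by 0.36 and Gtsf1 by 0.34, the last no longer called without WT mouse 1, at -0.29. Of 18 other regulators of late meiosis and spermatids, 10 were lower and none higher by edgeR, with a median of -0.29, again beside 20.2% and 11.2%. Ccna1, the meiotic cyclin A, fell by 1.63, Spz1, a spermatogenic helix-loop-helix factor, fell by 1.35, Gtf2a1l, the testis TFIIA subunit ALF, by 0.77 and Zfp541 by 0.59. In the 7 lists together 39 genes were lower, Odf1, Akap4 and Gapdhs included, and 6 higher, and with library size alone 32 were lower and 20 higher.

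**Figure D4:**
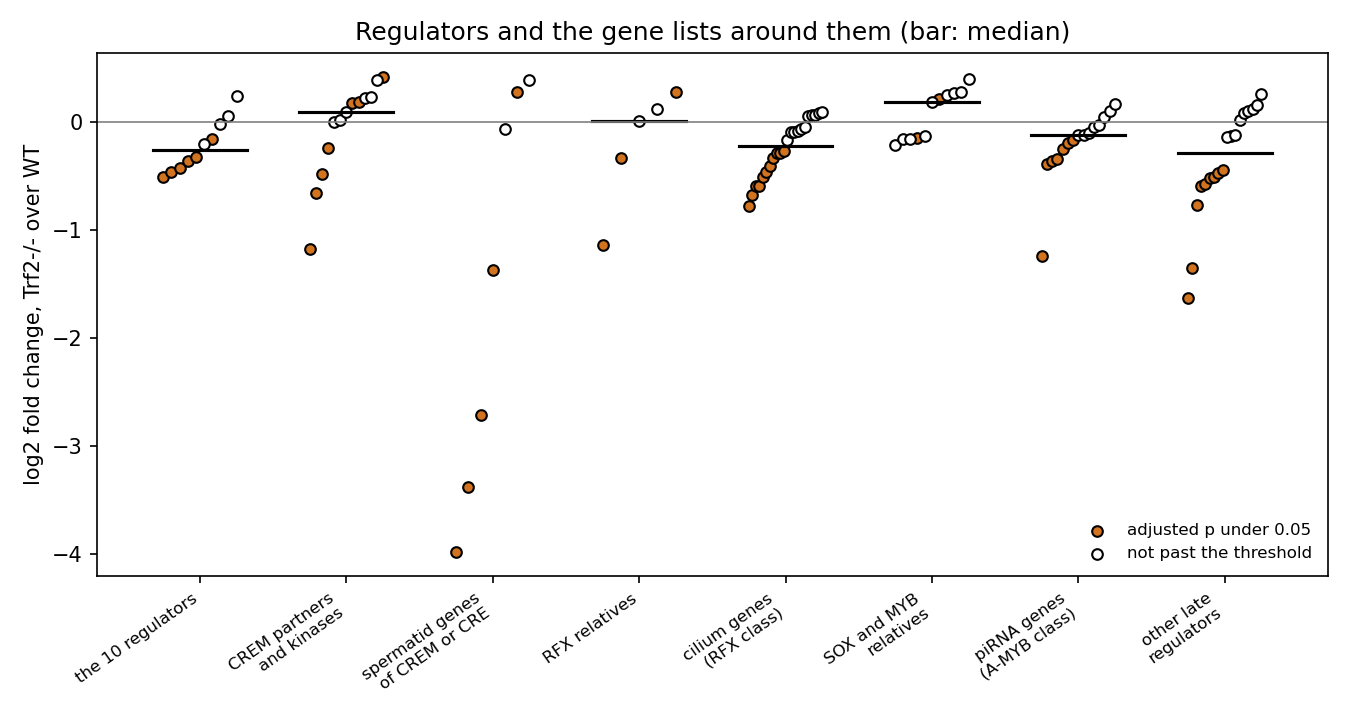
Log2 fold change, Trf2-/- over WT, of the 10 regulators and of every tested gene in the 7 lists around them, with a bar at the median of each other list. The regulators lie between -0.51 and 0.24. The 3 lowest points, of Odf1, Akap4 and Gapdhs among the spermatid genes that need CREM or carry a CRE, are genes kept by the filter through the WT mice, so no median is drawn for that list.

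Promoter letters were counted over the 11102 tested genes that have a RefSeq window, as a description with no test. Of 371 genes with a full CRE, 21.8% were lower (Wilson 95% interval 17.9 to 26.3%), beside 20.6% of the genes without it. At least 2-fold lower were 1.62% of genes with a CRE and 3.91% of those without. Of 1659 genes with the X-box arm, 25.2% were lower (23.2 to 27.3%), beside 19.9% without, and the median log2 fold changes were 0.01 and 0.05. The MYB core was in 9010 genes, of which 21.8% were lower, beside 15.8% of the 2092 without it, but base composition differed between these sets, at a mean GC content of 59.3% with the core and 64.5% without. For the SOX core the shares lower were 22.1% and 20.2%, again at different GC content, 55.3% and 61.9%. These intervals cover counting error only.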

How the data were processed

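Total RNA of whole testis was depleted of ribosomal RNA, made into stranded libraries and read as single-end 50-base reads. Per the submitters' processing notes the authors used CASAVA 1.8.2, TopHat2 2.0.10 with Bowtie2 2.1.0 on mm9, HTSeq 0.5.4p3 and DESeq2 1.0.19. The annotation release, the strand setting and the handling of reads shared by related genes are not given in the sources used here. The authors deposited raw counts per gene for the 6 mice. A further 12 per-sample columns of normalized values, and the authors' own fold changes and p-values, were not used.

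The quasi-likelihood test of Trf2-/- against WT was run on the counts in edgeR 4.0.16 under R 4.3.3, with libraries scaled by TMM and low genes removed by filterByExpr, which kept 16924 genes with 99.9% of counts. P-values were adjusted by Benjamini-Hochberg over these genes, and a call needed an adjusted p under 0.05. CPM used TMM-scaled totals, and levels per kb the deposited gene length. DESeq2 1.42.0, other scalings and filters, a replicate block and leaving out each mouse were alternatives. The study calls the mice independent biological replicates, and no pair of libraries agreed within sampling noise (chi-square per degree of freedom 3.51 to 10.9). Coordinates are from GENCODE on NCBIM37, in which 26576 of the 26743 identifiers were found, 98.7% of them with the same coordinates as deposited. Promoter windows came from RefSeq (GRCm38.p6).

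The 10 genes and all lists were chosen with earlier results of these data known. Named are the 10 genes, Tbpl1, genes overlapping a regulator, the 3 profiles nearest to Crem, marker genes at or near 0 counts and up to 4 called genes of each list with the greatest absolute log2 fold change. Ldhc and Clu are named as the most abundant genes of their marker lists. Creb1, Ace, Cyct, Camk4, Sox13, Sycp1, Sycp3, Hist1h1t, Lin9, Lin37, Lin52 and Lin54 were added after their values were seen. Prm1, Tnp2, Henmt1, Tbpl2 and Rhox5 were not analysed here.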

Additional observations from a re-analysis of the deposited data

How the results depend on the processing

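Of the 10 regulators, 5 or 6 were lower under each of the 13 alternatives, and none was higher except Rfx3 with library size alone, which gave 1 higher. Rfx2, Rfx4, Tcfl5, Crem and Sox30 passed their threshold under all 13, with log2 fold changes of -0.54 to -0.42, -0.47 to -0.33, -0.49 to -0.36, -0.45 to -0.27 and -0.37 to -0.22, and Mybl1 also lost its call at an adjusted p under 0.01. Rfx1 ranged from -0.24 to -0.11 and Rfx3 from 0.15 to 0.33. Sox5 ranged from -0.02 to 0.15 and Fhl5 from -0.64 to 0.24, and Fhl5 could not be tested with at least 10 counts in every mouse. Higher genes in the lists numbered 6, against 20 with library size alone, 1 at an adjusted p under 0.01 and 1 to 6 with a mouse left out. Higher genes over all tested numbered 1889, against 4267 with library size alone, 481 at an adjusted p under 0.01 and 780 to 1903 with a mouse left out. Library size alone moved the median of all genes from 0.04 to 0.13. The causes were not tested. The labels number the mice 1 to 3 in both genotypes. Same-numbered mice deviated from their group means with correlations of -0.0973, -0.0313 and -0.102. Such values from 3 mice per genotype cannot show whether the numbers mark pairs, and the main test treated the mice as unpaired. A replicate block gave 3094 genes lower and 1486 higher, and 6 regulators lower and 0 higher, and it changed no call among the 10. Of the list genes, Rfxank, Fhl3, Sox8 and Sox6 were among those that lost their call with the block. With no filter beyond 1 count, Fhl3, Sox8 and Sox6 also lost theirs. With 3 mice per genotype and fewer than 25 counts per mouse, Fhl5 was limited by depth. Using the CRE core in place of the full CRE gave 20.3% of genes lower.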
